A study of Mus musculus with 22 samples.

Results

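Mature migratory dendritic cells (mature DC) were the barcodes of the 11 hashtagged tissue libraries that passed a gate on 10 genes. A barcode needed at least 200 detected genes and at most 25% mitochondrial UMIs, where a UMI (unique molecular identifier) counts 1 captured transcript. It needed at least 1 UMI in 2 or more of Ccr7, Ccl22, Ccl17, Fscn1 and Ccl5, with Ccr7 or Fscn1 among them, and at least 5 UMIs of Cd74. It had no UMI of the B cell gene Cd79a, the T cell genes Cd3e and Cd3d, or the macrophage gene C1qa. The gate held 544 cells of 93055 passing tissue barcodes, 0.585%, and of 179929 called barcodes in the 22 libraries of the series. Each tissue library pooled kidney, liver, lung and stomach of mice with epididymis (males) or uterus (females), read by 10x Chromium 3′ capture. All these mice carried Prom1-CreERT2, a tamoxifen-activated recombinase driven by the Prom1 promoter, and the reporter Rosa26ZSG. The labels gave no dose or time of tamoxifen. The 5 wt libraries were labelled with those 2 alleles alone and came at 571, 571, 608, 611 and 654 days, replicates 4 and 5 female and the others male. Both het libraries (Nalcn-het) were male and 551 days old. Of the null libraries (Nalcn-null), replicate 2 was male at 552 days and replicate 3, whose strain entry alone named the genotype, was labelled female at 611 days. Nalcn encodes a sodium leak channel, and its recombination was driven from Prom1 rather than from a dendritic cell gene. The title of unassigned A (male, 610 days) gave Nalcn-het and its strain entry Nalcn-null, whereas unassigned B (female, 647 days) was Nalcn-null by title and wt by strain entry. Their 6 and 60 cells entered no genotype comparison, and unassigned B was used where cells were compared within a library. The organ of a single cell was not known here, since hashtag counts were not used. The study describes its replicates as biological, while the labels tie no library to a named mouse, and p-values here measure the spread between libraries.

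Conventional dendritic cells sample antigen in tissues and, once they mature, carry it to lymph nodes. Maturation brings in CCR7, the receptor that steers the cell along CCL19 and CCL21 into lymphatic vessels, and fascin (Fscn1), which bundles actin in its long processes. Mature cells lower antigen uptake, show costimulatory molecules such as CD40, CD80 and CD86 to T cells, secrete the T cell attractants CCL17 and CCL22, and also make restraining molecules such as PD-L1 (Cd274). They arise from type 1 (Xcr1, Clec9a) and type 2 (Cd209a, Clec10a) conventional dendritic cells.

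The cells were chosen by UMI counts of the 10 gate genes, so the values of these genes are a description. Ccr7 (chr11:99144196-99155077, minus strand, GENCODE vM21 on mm10) had a UMI in 511 of 544 cells (93.9%) and Ccl5 in 355 (65.3%). Ccl22 (chr8:94745590-94751699, plus strand) had one in 247 (45.4%), Fscn1 (chr5:142960343-142973185, plus strand) in 217 (39.9%) and Ccl17 (chr8:94810453-94812036, plus strand) in 177 (32.5%). The commonest combination was Ccr7 with Ccl5 and none of the others, in 144 cells (26.5%), followed by Ccr7 with Ccl22 and Ccl17 in 82 cells (15.1%). All 5 genes were detected together in 28 cells (5.15%). The transcripts were unevenly spread: a single cell held up to 367 UMIs of Ccl17, 273 of Ccl5, 146 of Ccl22, 71 of Ccr7 and 51 of Fscn1. Just inside the gate were 254 cells with exactly 2 of the 5 genes and 88 cells with 5 to 9 Cd74 UMIs. Just outside it were 1286 barcodes with 1 of the 5 genes and 196 with 1 to 4 Cd74 UMIs that met every other limit. A further 793 barcodes were kept out by a Cd79a, Cd3e, Cd3d or C1qa UMI alone.

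Cell numbers and depth were uneven between libraries. Tissue wt replicate 2 gave 198 of the cells and wt replicate 5 gave 1, and the other wt, het and null libraries gave 23 to 66 each. Cells had a median of 3988.5 UMIs (511 to 156798) and 1470 genes. In 4 cells there were over 30000 UMIs, and 1 of these held 38.0% of all mature DC UMIs of wt replicate 1, with 2051 UMIs of Lcn2 and 742 of Spink8, transcripts of epithelium and epididymis. Scrublet scores, which rank barcodes by their likeness to simulated mixtures of 2 cells, removed 113 of the 544 cells (20.8%) against 16.2% of all passing tissue barcodes. Of the 544 barcodes, 15 also occurred in another tissue library, none of them as a mature DC there. In mature DC of tissue null replicate 3, labelled female with uterus, Xist stood at 1155 CPM, Y-linked Ddx3y, Eif2s3y, Kdm5d and Uty together at 53.2 CPM and the epididymal gene Gpx5 at 198 CPM. Tissue wt replicate 4, also female, had Xist at 2045 CPM and none of the Y-linked genes or Gpx5. CPM here is the UMI count scaled to a common total, over the summed mature DC of a library.

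The label was checked against 16 genes known from mature migratory dendritic cells that the gate did not use: Cacnb3, Nudt17, Tmem123, Il4i1, Socs2, Apol7c, Cd83, Relb, Traf1, Serpinb6b, Zmynd15, Tbc1d4, Samsn1, Cd200, Marcksl1 and Birc2. A mature DC had a median of 7 of the 16 with at least 1 UMI. At least 4 were detected in 431 cells (79.2%) and at least 8 in 246 cells (45.2%), whereas 45 cells had none or 1. Barcodes just inside the gate had a median of 5, at 3941.5 UMIs for those with exactly 2 gate genes. Just outside it the median was 2 for those with 1 gate gene (1977.5 UMIs), 3 for those with too few Cd74 UMIs (1706 UMIs) and 4 for those kept out by a Cd79a, Cd3e, Cd3d or C1qa UMI (4665 UMIs). To compare cells at equal depth, each was thinned to 1000 UMIs, which left out 20 mature DC below that depth, 24 type 2 DC, 17 type 1 DC, 1444 B cells and 235 fibroblasts gated from the same libraries. Cacnb3, a calcium channel subunit, then had a UMI in 11.8% of mature DC (95% exact binomial interval 9.19 to 14.9%), 0.131% of type 1 DC, 0.176% of B cells, 2.39% of fibroblasts and none of 786 type 2 DC, which allows up to 0.382%. Such intervals cover counting error only. Il4i1, a secreted amino acid oxidase, had a UMI in 15.6% of mature DC, 2.57% of B cells, 1.02% of type 2 DC, 0.262% of type 1 DC and 0.129% of fibroblasts. Tbc1d4 had a UMI in 43.5% of mature DC against 11.1% of type 1 DC, 7.25% of type 2 DC, 1.79% of B cells and 1.68% of fibroblasts. Ccr7 itself had a UMI in 20.4% of thinned B cells, where it is also expressed, and in 0.583% of fibroblasts. The cells with few signature genes went against the label in part. The sums that follow leave out cells over 30000 UMIs. They cover 112 cells with 0 to 3 signature genes, 185 with 4 to 7 and 243 with 8 or more. Summed B cell markers (7 genes, Cd79b, Ms4a1, Ighm and Igkc among them) stood at 6435 CPM in cells with 0 to 3 signature genes, 1127 CPM in those with 4 to 7 and 218 CPM in those with 8 or more. Much of this came from wt replicate 4, where Igkc alone was at 10698 CPM, and without that library the values were 1162, 419.7 and 188 CPM. Other lists were also higher in cells with 0 to 3 than with 8 or more signature genes: fibroblast markers at 909 against 137 CPM, plasma cell markers at 567 against 153 CPM, T cell markers at 179.5 against 41.2 CPM and monocyte markers at 2058 against 1207 CPM. Without wt replicate 4 the fibroblast values were 223 against 139.9 CPM and the plasma cell values 366 against 151 CPM. In wt replicate 4 the median was 3 signature genes and 45.5% of cells had at least 4, against 66.0 to 96.3% in the other 7 libraries with a genotype and over 1 cell. That library also had the most gated B cells, 2306.

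**Figure D1:**
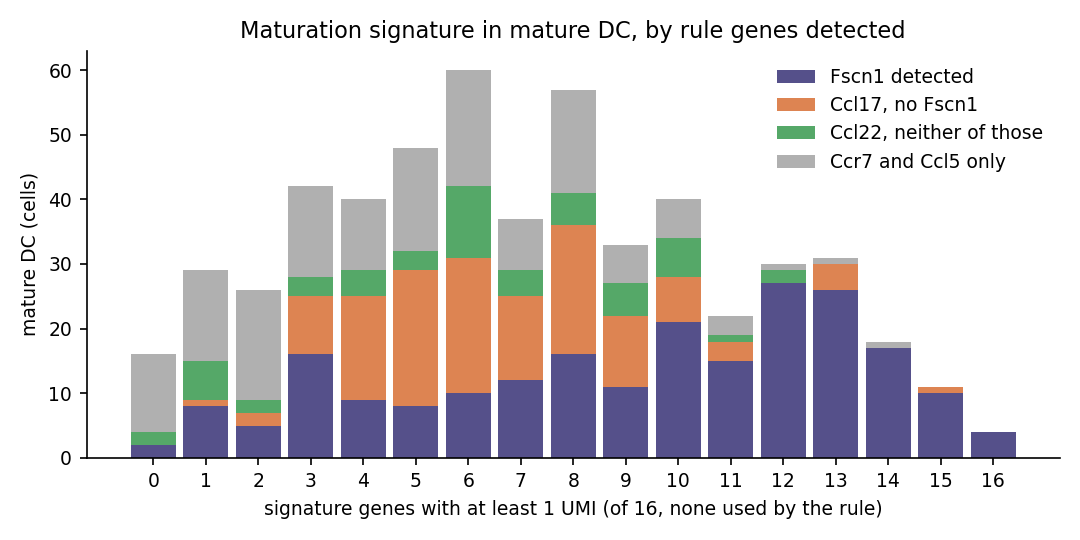
Number of mature DC (y axis, cells) by how many of the 16 signature genes had at least 1 UMI (x axis), with colours for the gate genes detected: Fscn1, Ccl17 without Fscn1, Ccl22 with neither, or Ccr7 and Ccl5 only. The 217 cells with Fscn1 had a median of 10 signature genes and reach the right end, and the 144 cells with Ccr7 and Ccl5 only had a median of 5.

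The gate genes divided the cells into 4 groups that carried different genes outside the gate. The split was made after values were seen and gets no test. It set apart 217 cells with Fscn1, 129 with Ccl17 and no Fscn1, 54 with Ccl22 and neither of those, and 144 with Ccr7 and Ccl5 only. Median depths were 3677, 4708, 4742.5 and 3993 UMIs, so the shares that follow are at 1000 UMIs per cell. Levels between the first 2 groups were compared within the 8 libraries, unassigned B among them, that had at least 6 cells of each and without cells over 30000 UMIs.

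Fscn1 cells had the most signature genes, with a median of 10 against 6, 6 and 5 in the other groups. The groups also differed in how many gate genes their cells held. With exactly 2, medians were 5 for Ccr7 with Fscn1 (35 cells) and 4 for Fscn1 with Ccl5 (23 cells). Beside these, Ccr7 with Ccl5, Ccl17 or Ccl22 had 5, 5 and 4. With 3, Ccr7, Fscn1 and Ccl5 (63 cells) had 11, and Ccr7, Ccl22 and Ccl17 (82 cells) had 6. Tmem123 had a UMI in 65.1% of the Fscn1 group, 23.6% of the Ccl17 group, 26.9% of the Ccl22 group and 18.4% of the remaining cells. Birc2, an inhibitor of apoptosis, was detected in 26.8% of the Fscn1 group, 7.09% of the Ccl17 group, 7.69% of the Ccl22 group and 11.8% of the remaining cells. Both were higher in Fscn1 than in Ccl17 cells in 8 of 8 libraries, as were Il4i1, Socs2 (245 against 38.7 CPM over all cells of the 2 groups), Relb (242 against 111 CPM), Cd200 (253 against 45.4 CPM) and Apol7c (189.5 against 24.03 CPM). The other signature genes leaned less or the other way. Cacnb3, Samsn1 and Serpinb6b were higher in Fscn1 cells in 7 libraries and in Ccl17 cells in 1, and Nudt17 in 7 and 0. Tbc1d4 was so in 6 and 2, Marcksl1 and Zmynd15 in 5 and 3, Traf1 in 4 and 4 and Cd83 in 1 and 7. Outside the signature, Epsti1, an interferon-inducible gene, stood at 849 against 62.7 CPM, higher in Fscn1 cells in 8 of 8 libraries. Tnfrsf4, which encodes the costimulatory receptor OX40, stood at 125 against 1.33 CPM, higher in 7 of 8. B cell transcripts were also higher in Fscn1 than in Ccl17 cells. Igkc stood at 1504 against 125 CPM, higher in 8 of 8 libraries. Ighm and Ebf1 were higher in Fscn1 cells in 6 libraries and in Ccl17 cells in 1, and Ms4a1 in 5 and 1. The part these transcripts play in the Fscn1 values was not tested.

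Ccl17 cells without Fscn1 had more Il1b. Il1b, which encodes interleukin-1β, had a UMI in 23.9% of the Fscn1 group, 57.5% of the Ccl17 group, 46.2% of the Ccl22 group and 36.8% of the remaining cells. Nlrp3, the sensor of the inflammasome that activates interleukin-1β, was detected in 2.39% of the Fscn1 group, 16.5% of the Ccl17 group, 9.62% of the Ccl22 group and 7.35% of the remaining cells. Cd207, which encodes the lectin langerin, was detected in 0% of the Fscn1 group, 12.6% of the Ccl17 group, 1.92% of the Ccl22 group and 0% of the remaining cells. Il1b (563 against 2507 CPM, Fscn1 against Ccl17 cells), Nlrp3 (32.9 against 248 CPM), Cd207 (4.83 against 294 CPM) and the type 2 lectins Mgl2 (14.5 against 360.4 CPM) and Cd209a (9.67 against 171 CPM) were each higher in Ccl17 cells in 8 of 8 libraries. Of the 9 listed type 2 markers, 8 were higher in Ccl17 cells in more libraries than in Fscn1 cells, by small margins for some, such as Klf4 (5 against 3), and Cd7 went the other way (0 against 3). Listed type 1 markers leaned both ways. In Ccl17 cells, Naaa and Wdfy4 were higher in 8 of 8 libraries, Itgae and Cadm1 in 7, Xcr1 in 6 and Clec9a in 5. In Fscn1 cells, Irf8 and Batf3 were higher in 8 of 8, and Tlr3 in 3 against 2. The 9 listed costimulatory genes were split. Cd83 (548 against 1075 CPM), Cd80 (74.5 against 180.2 CPM) and Cd86 (145 against 276 CPM) were higher in Ccl17 cells in 7, 6 and 6 of 8, and Tnfsf9 in 6. Tnfrsf4 was higher in Fscn1 cells in 7 libraries and in Ccl17 cells in 0, Icosl in 5 and 3 and Cd70 in 4 and 3. Cd40 and Tnfsf4 were each at 4 and 4. Il12b, the p40 subunit shared by interleukin-12 and interleukin-23, was carried by both groups (483 against 541 CPM), higher in Fscn1 cells in 5 libraries and in Ccl17 cells in 3.

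Cells with Ccr7 and Ccl5 only were set beside Fscn1 cells within the 4 libraries with at least 6 of each: wt replicate 2, wt replicate 4, null replicate 2 and unassigned B. Isg15, an interferon-induced modifier, had a UMI in 26.5% of these cells against 8.61% of the Fscn1 group after thinning. That pooled value rested on wt replicate 2, which gave 74 of the 144 cells and had Isg15 at 976 against 367 CPM. Isg15 was lower than in Fscn1 cells in the other 3, at 67.1 against 115 CPM in wt replicate 4, 0 against 73.9 CPM in null replicate 2 and 143 against 199 CPM in unassigned B. Of 12 listed interferon-stimulated genes, 11 were higher in wt replicate 2, 10 in wt replicate 4, 8 in unassigned B and 1 in null replicate 2, where 6 were lower. In null replicate 2 the smallest values above 0 were 36.9 CPM in Fscn1 cells and 31.2 CPM in cells with Ccr7 and Ccl5 only. Low values there, Isg15 among them, thus rest on few UMIs and their direction is uncertain. Epsti1 was lower in all 4 libraries. Of 7 listed monocyte markers, 4 were higher and 3 lower in wt replicate 2, 5 higher and 1 lower in wt replicate 4, and 4 higher and 2 lower in each of null replicate 2 and unassigned B. Summed, the list was higher than in Fscn1 cells in all 4 libraries. It stood at 1912 against 916 CPM in wt replicate 2 and 3474 against 176 CPM in wt replicate 4. In null replicate 2 the sums were 3844 against 480 CPM and in unassigned B 2238 against 1452 CPM. Ly6c2, a marker of classical monocytes, was lower in wt replicate 2 (79.2 against 127 CPM) and higher in wt replicate 4 (252 against 15.3 CPM) and unassigned B (667 against 62.1 CPM). In null replicate 2, where it was counted as lower, Ly6c2 stood at 31.2 against 36.9 CPM. These are the smallest values above 0 in the 2 groups and give no direction. Chil3 stood at 461 against 92.3 CPM in wt replicate 2, 2685 against 53.7 CPM in wt replicate 4, 3094 against 36.9 CPM in null replicate 2 and 476 against 968 CPM in unassigned B. Chil3 and Plac8 were each higher in 3 of 4 libraries. After thinning, Plac8 also had a UMI in 31.9% of B cells, 33.3% of type 2 DC and 28.4% of type 1 DC. Chil3 had one in 12.4, 12.1 and 12.96% of these cells. Whether the B cells, type 2 DC and type 1 DC expressed either gene themselves was not tested. The share of this group was uneven. It made up 37.4% of mature DC in wt replicate 2, 36.4% in wt replicate 4 and 37.7% in null replicate 2, but 7.5 to 13.04% in the other 5 libraries with a genotype and over 1 cell. The part that B cell or monocyte transcripts play in these values was not tested.

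**Figure D2:**
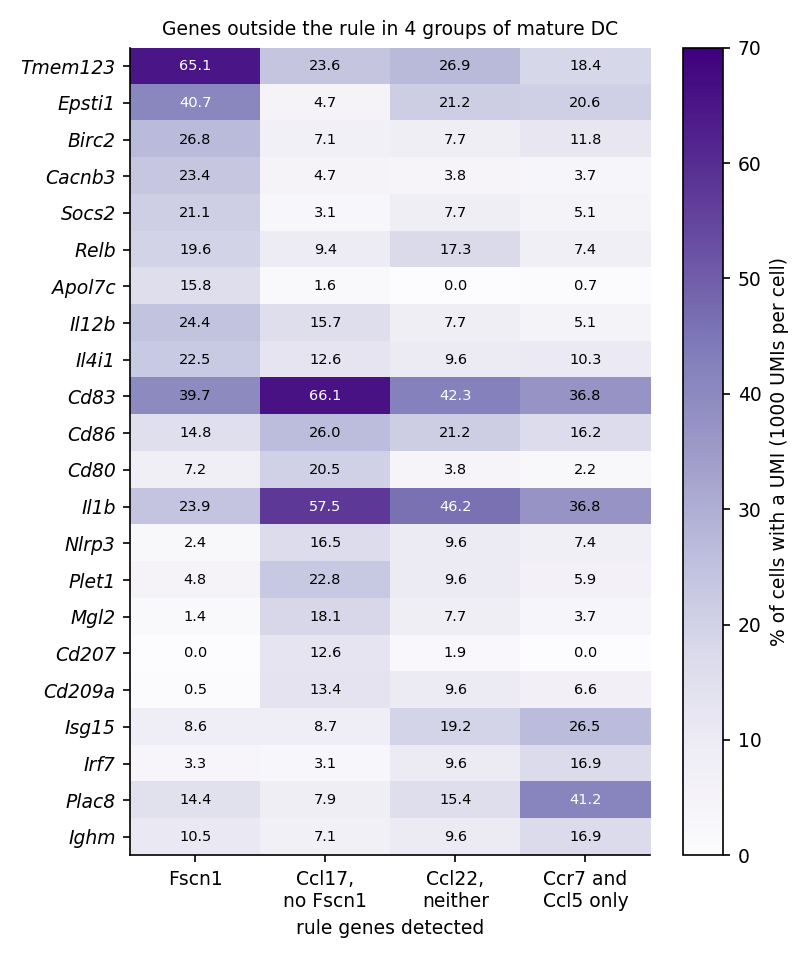
Percent of mature DC with at least 1 UMI of each gene (rows) after thinning to 1000 UMIs per cell, in 4 groups set by the gate genes detected (columns); darker cells are higher and the number is the percent. Tmem123 reaches 65.1% in the Fscn1 column and Cd83 66.1% in the Ccl17 column.

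Markers of either parent lineage were sparse in mature DC. After thinning, 13 of 524 cells (2.48%, interval 1.33 to 4.21%) carried a defining type 1 gene (Xcr1 or Clec9a), 36 (6.87%, 4.86 to 9.38%) a defining type 2 gene (Cd209a or Clec10a), none both and 475 (90.6%) neither. In the type 1 DC gate 51.7% had a type 1 but no type 2 gene and in the type 2 DC gate 60.4% the reverse, where each gate required its own gene before thinning. B cells had 0.272% and 0.416%, and fibroblasts 0.0647% and 0.324%. Type 2 genes were found in 19 of 127 Ccl17 cells (15.0%), 10 of 136 Ccr7 and Ccl5 cells (7.35%), 5 of 52 Ccl22 cells (9.62%) and 2 of 209 Fscn1 cells (0.957%), and type 1 genes in 4, 2, 4 and 3 of these.

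**Figure D3:**
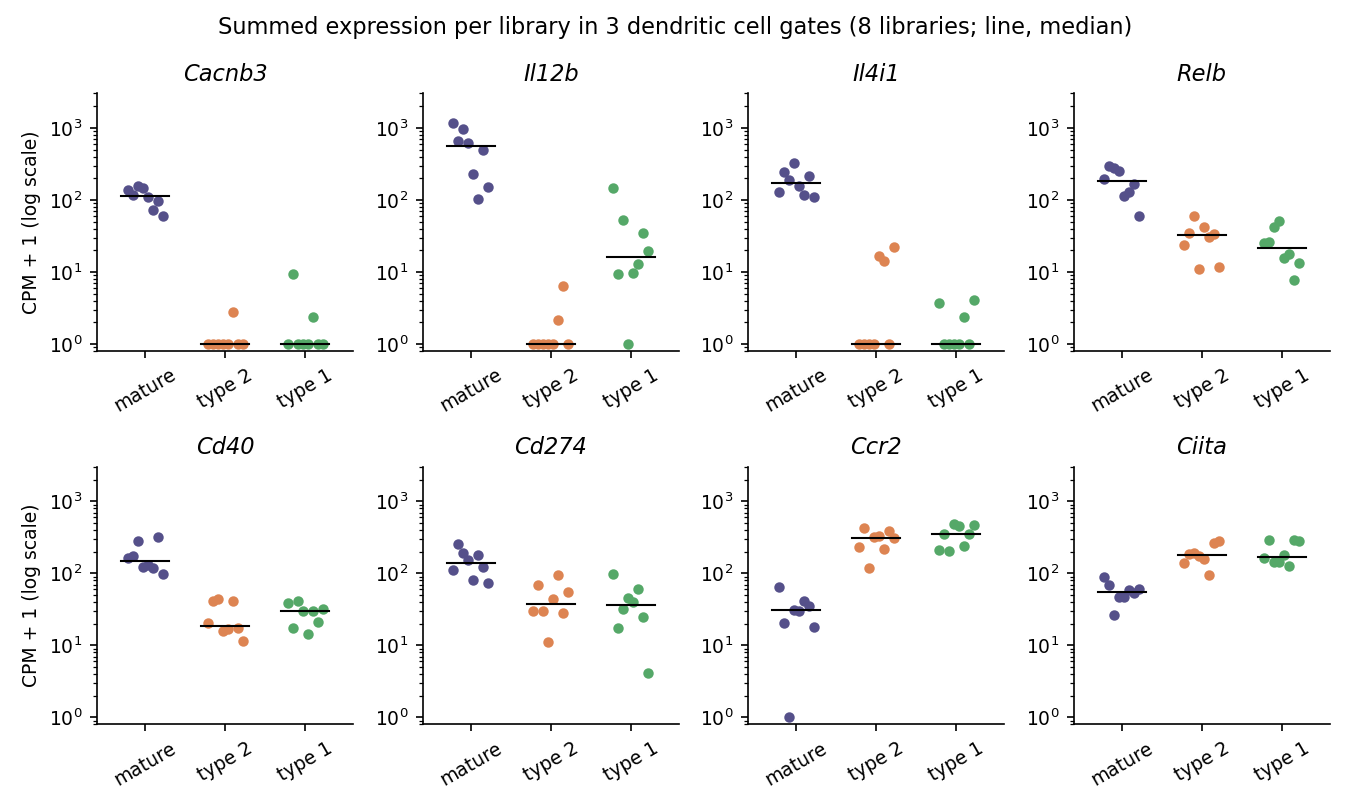
Summed expression of 8 genes in each of 8 libraries (points) for mature, type 2 and type 1 DC, in CPM plus 1 on a log axis, with the median as a line. Cacnb3 and Il12b sit above 50 CPM in mature DC of every library and at or near 0 in most type 2 DC libraries, whereas Ccr2 and Ciita are lower in mature DC than in both other gates.

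Mature DC were then compared with type 2 DC (810 cells of the 11 tissue libraries) and type 1 DC (781 cells), which were not mature DC and met the same limits on Cd74, Cd79a, Cd3e, Cd3d and C1qa. Type 2 DC had at least 2 of Cd209a, Clec10a, Mgl2, Itgax and Flt3, with Cd209a or Clec10a among them, and type 1 DC at least 2 of Xcr1, Clec9a, Wdfy4, Naaa and Flt3, with Xcr1 or Clec9a. UMIs were summed per gate in the 8 libraries with a genotype and at least 10 cells of each gate, and edgeR's quasi-likelihood test was run with the library as a block. Genes of all 3 gates were left out of the counts. The cells had been separated by expression, so a gene that varies together with the gate genes can pass for that reason. Against type 2 DC, 464 of 4227 genes were higher in mature DC (11%) and 353 lower (8.35%). Against type 1 DC, 722 of 4972 were higher (14.5%) and 553 lower (11.1%). All 16 signature genes were tested in both and all 16 were higher in both, with a median log2 difference of 3.00 against type 2 DC and 3.28 against type 1 DC, beside 0.02 and -0.01 over all genes tested. Cacnb3 ran from 58.9 to 153 CPM (median 113) in mature DC and from 0 to 1.74 CPM in type 2 DC, with no overlap. The 254 UMIs of mature DC against 3 of type 2 DC are a ratio of 107 once scaled to the total UMIs of each gate (exact 95% interval 36.2 to 522). Nudt17, a nudix hydrolase, had 102 UMIs in mature DC and none in 8 type 2 DC libraries, at least 43.0-fold higher at a floor of 3 UMIs over the group. Relb, the NF-kB subunit tied to dendritic cell maturation, ran from 58.9 to 291 CPM (median 179) in mature DC, 9.97 to 58.05 CPM in type 2 DC and 6.74 to 49.3 CPM in type 1 DC (log2 difference 2.52, SE 0.25, adjusted p = 7.78e-06 and log2 difference 2.97, SE 0.21, adjusted p = 1.13e-07). Cd83 ran from 451 to 1004 CPM (median 879) and overlapped with both other gates, at 324 to 577 and 221 to 508 CPM (log2 difference 0.90, SE 0.18, adjusted p = 0.00257 and log2 difference 1.33, SE 0.15, adjusted p = 1.16e-05).

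Secreted signals outside the gate were led by Il12b (chr11:44400063-44414033, plus strand). It ran from 101 to 1163 CPM (median 553) in mature DC, 0 to 5.45 CPM in type 2 DC and 0 to 143 CPM in type 1 DC. The 842 UMIs in mature DC against 3 in type 2 DC are a ratio of 355 (121 to 1723), and the log2 difference from type 1 DC was 4.04 ± 0.36 (SE, adjusted p = 1.44e-06). Every mature DC library was above every type 2 DC library, and the type 1 DC range overlapped. Ebi3, a subunit of interleukin-27 and interleukin-35, was higher than in both (1.04 ± 0.30 and 1.49 ± 0.26), the former call being lost without single libraries (adjusted p = 0.0569 to 0.0697 without het replicate 1, het replicate 2 or wt replicate 4). Il1b was higher than in type 1 DC (1.82 ± 0.24, adjusted p = 4.75e-05) and stood at 551 to 2143 CPM (median 1307) beside 726 to 1869 CPM (median 1133) in type 2 DC (0.17 ± 0.18, adjusted p = 0.613). Of 14 listed cytokines and chemokines, 8 were tested against type 2 DC and 2 were higher, and 7 were tested against type 1 DC, 4 higher and 1, the interferon-γ-induced chemokine Cxcl9, lower. The Cxcl9 call was lost without single libraries (adjusted p = 0.0655 to 0.107 without het replicate 2, null replicate 2, wt replicate 1 or wt replicate 3). Ccl19, a ligand of CCR7, was at 0 in 6 of the 8 mature DC libraries and not tested.

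Costimulatory genes rose in mature DC. Of 9 listed, 7 were tested in each comparison and 5 were higher in each. Among them, Cd83 is also a signature gene, already counted above. Cd40, the receptor for T cell CD40 ligand, ran from 96.8 to 318 CPM (median 146) in mature DC, 10.7 to 43.5 CPM in type 2 DC and 13.6 to 40.7 CPM in type 1 DC, with no overlap (log2 difference 2.67, SE 0.26, adjusted p = 7.57e-06 and log2 difference 2.55, SE 0.25, adjusted p = 3.10e-06). Cd80 was higher than in both (2.23 ± 0.35 and 2.08 ± 0.29). Cd86 was higher than in type 2 DC (1.36 ± 0.21) and differed from type 1 DC by 0.48 ± 0.19 (adjusted p = 0.0760). Tnfrsf4 was higher than in both, with 121 UMIs against 3 in type 1 DC (ratio 54.0, interval 18.03 to 265). Genes that restrain T cells or cytokine signals rose beside them. Of 10 such genes 7 were tested, and 6 were higher than in type 2 DC and 7 than in type 1 DC. Socs2, Il4i1 and Cd200 of these are also signature genes, already counted above. Cd274, which encodes PD-L1, ran from 71.5 to 252 CPM (median 136) in mature DC and overlapped with both (1.55 ± 0.27 and 1.77 ± 0.32, adjusted p = 8.40e-04 and 6.67e-04). Il4i1 ran from 109 to 327 CPM (median 173) against 0 to 21.4 and 0 to 3.12 CPM (4.10 ± 0.44 and 6.87 ± 0.36). Aldh1a2, which makes retinoic acid, was higher than in both (3.09 ± 0.82 and 3.55 ± 0.71), from 0 in 1 mature DC library to 114 CPM. The call against type 2 DC was lost without 1 of 2 libraries (adjusted p = 0.0507 to 0.0526 without null replicate 3 or wt replicate 1). Ido1 had no UMI in mature DC of any of the 8 libraries.

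NF-kB genes were higher in mature DC than in type 1 DC for all 13 listed and tested, of which 12 passed under every alternative in which they were tested, and than in type 2 DC for 8 of 13. The median log2 differences were 1.54 and 0.90. Relb, Birc2 and Traf1 of this list are also signature genes, already counted above as higher in both. Rel ran from 572 to 1154 CPM (median 967) in mature DC, 299 to 499.97 CPM in type 2 DC and 142 to 305 CPM in type 1 DC, with no overlap (1.30 ± 0.17 and 2.11 ± 0.17). Nfkb2, whose product pairs with RelB, was higher than in both (1.10 ± 0.25 and 1.54 ± 0.25), as was Nfkbia, the inhibitor IκBα (0.90 ± 0.16 and 1.75 ± 0.17). Nfkb1 and Rela passed against type 1 DC alone (0.98 ± 0.22 and 0.78 ± 0.20, Rela being lost with the filter of at least 1 count at adjusted p = 0.0510), and their differences from type 2 DC were 0.24 ± 0.21 and 0.40 ± 0.19 (adjusted p = 0.513 and 0.189). The difference between the 2 comparisons was not tested. Promoters of the NF-kB genes, each 250 bases before to 50 after an annotated start in RefSeq on GRCm38.p6, were searched on both strands for the letters GGGA and TTCC with any 2 bases between them. A match occurred in 2 of 11 genes with a promoter (18.2%) and in 441 of 27025 genes in all (1.63%). None of the 12 signature genes or 3 gate genes with a promoter held these letters in this window. The 2 genes with a match are shown with it in capitals, since both rose against both other gates. The Nfkbia match began 29 bases before the start (chr12:55492598-55492897, minus strand), and those of Nfkb2 236 bases before and 10 bases after a start (chr19:46305445-46305744, plus strand). Letters that match are a description of the sequence and not a bound site.
Nfkbia: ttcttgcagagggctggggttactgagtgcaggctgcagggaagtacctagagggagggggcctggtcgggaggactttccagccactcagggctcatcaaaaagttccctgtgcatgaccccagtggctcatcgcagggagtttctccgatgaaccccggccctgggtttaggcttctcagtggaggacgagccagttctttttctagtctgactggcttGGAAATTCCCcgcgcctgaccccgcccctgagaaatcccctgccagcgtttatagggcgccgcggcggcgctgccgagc
Nfkb2: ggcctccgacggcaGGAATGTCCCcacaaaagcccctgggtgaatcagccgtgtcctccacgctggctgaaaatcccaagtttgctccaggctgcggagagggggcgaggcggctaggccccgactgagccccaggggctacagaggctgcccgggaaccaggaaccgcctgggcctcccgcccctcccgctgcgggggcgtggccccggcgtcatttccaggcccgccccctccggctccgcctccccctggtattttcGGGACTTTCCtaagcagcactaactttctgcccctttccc

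Genes of movement and shape were also higher. Of 10 listed and tested, 9 were higher than in type 2 DC and 8 than in type 1 DC. Tbc1d4, Marcksl1 and Samsn1 of this list are also signature genes, already counted above as higher in both. Marcks, an actin-binding substrate of protein kinase C, ran from 812 to 1932 CPM (median 1357) in mature DC, 305 to 668 CPM in type 2 DC and 314 to 692 CPM in type 1 DC (1.70 ± 0.18 and 1.36 ± 0.17). Anxa3 (2.43 ± 0.24 and 3.33 ± 0.27) and the adhesion molecule Icam1 (1.37 ± 0.25 and 1.38 ± 0.23) were higher than in both. Chemokine receptors other than Ccr7 went the other way against type 2 DC, where 4 of 6 tested were lower and none higher. Ccr2, the receptor that recruits cells from blood, ran from 0 to 63.7 CPM (median 29.7) in mature DC, 116 to 432 CPM in type 2 DC and 203 to 476 CPM in type 1 DC, lower in all 8 libraries (log2 difference -3.05, SE 0.27, adjusted p = 3.14e-06 and log2 difference -3.34, SE 0.31, adjusted p = 1.84e-06). Cxcr4 was higher than in type 1 DC (1.56 ± 0.22).

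Class II presentation was lower in part. Against type 2 DC, 5 of 11 listed genes were lower and none higher, and against type 1 DC 5 were lower and 2 higher. Ciita, the master activator of class II transcription, ran from 25.4 to 89.1 CPM (median 54.4) in mature DC, 94.7 to 283 CPM in type 2 DC and 127 to 293 CPM in type 1 DC (log2 difference -1.49, SE 0.23, adjusted p = 3.23e-04 and log2 difference -1.73, SE 0.21, adjusted p = 2.25e-05). H2-DMa, which loads peptide, was lower than in both (-0.83 ± 0.15 and -1.13 ± 0.13). The class II chain H2-Aa stood at 2841 to 5711 CPM (median 5010) and its differences were -0.33 ± 0.14 and -0.24 ± 0.11 (adjusted p = 0.137 and 0.129). Class I genes split by comparison. The class I chain H2-K1 was higher than in both (0.93 ± 0.11 and 1.15 ± 0.10), while the immunoproteasome subunit Psmb9 was lower than in type 1 DC (-1.07 ± 0.19, adjusted p = 6.10e-04) and differed from type 2 DC by 0.45 ± 0.18 (adjusted p = 0.0948). Of 11 listed class I genes, 7 were higher than in type 2 DC and none lower, and 4 were higher than in type 1 DC and 4 lower. Of the 4 lower, Psmb9 alone passed under every alternative. Tap1, Psme1 and Psmb8 were lost with at least 3 of the 5 gate genes required (-0.37, -0.14 and -0.14, adjusted p = 0.208, 0.624 and 0.554) and with thinned cells (adjusted p = 0.0750, 0.0933 and 0.125). Psme1 was also lost with adjusted p = 0.0603 to 0.0854 without het replicate 2, wt replicate 1, wt replicate 2, wt replicate 3 or wt replicate 4, and Psmb8 with adjusted p = 0.0579 to 0.115 without het replicate 2, null replicate 2, null replicate 3, wt replicate 1 or wt replicate 3. Of the 7 higher than in type 2 DC, 4 passed under every alternative in which they were tested (H2-K1, Psme2, B2m and Nlrc5). Of the class II genes lower than in type 2 DC, Ctss was lost without the library block (adjusted p = 0.219) and H2-DMb1 with thinned cells (adjusted p = 0.0663). Uptake receptors were lower than in type 2 DC for 5 of 10 tested outside the gates, among them the inhibitory Fc receptor Fcgr2b (-1.50 ± 0.20) and Clec12a (-1.08 ± 0.22). Against type 1 DC, of 7 tested, Clec12a was lower (-1.71 ± 0.21), Cd14 higher (1.07 ± 0.25) and 5 did not pass, with a list median of 0.05.

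**Figure D4:**
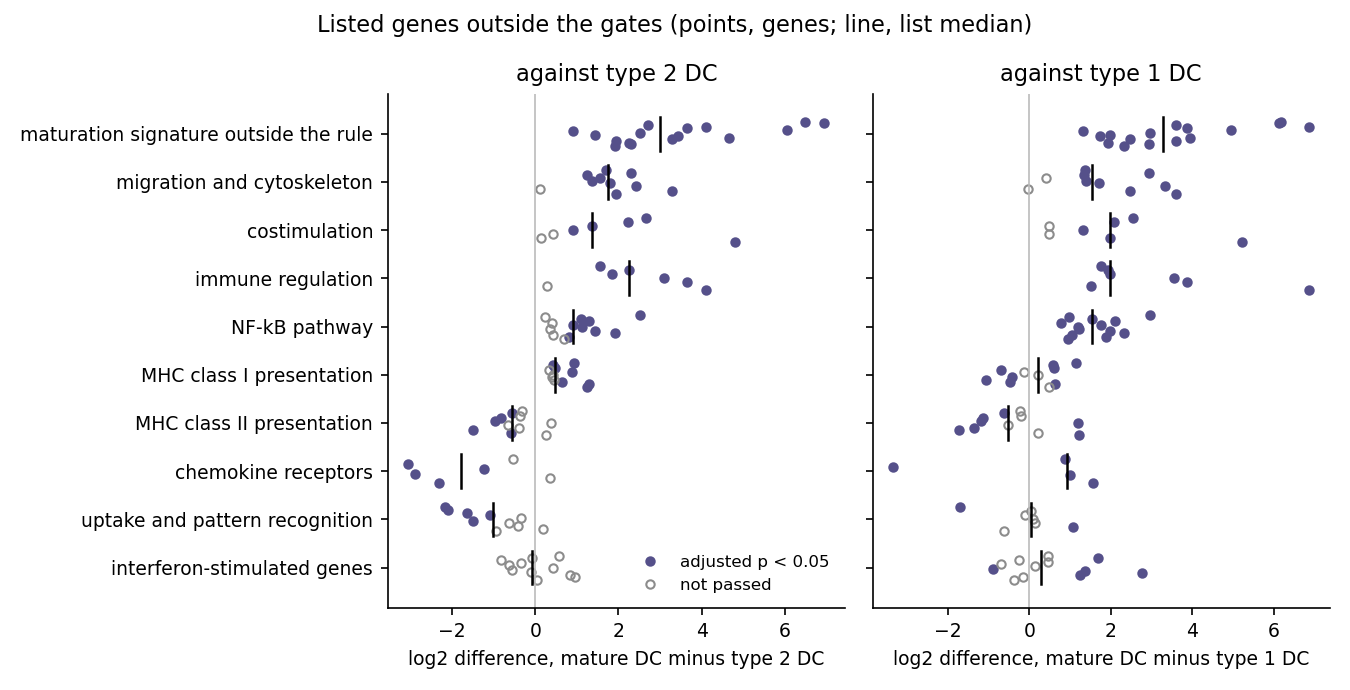
Log2 difference of mature DC from type 2 DC (left) and type 1 DC (right) for the tested genes of 10 lists outside the gates; filled points passed adjusted p 0.05, open points did not, and the line is the list median. All 16 signature genes are filled and to the right of 0 in both panels, the 13 NF-kB genes are filled in the right panel and 8 of 13 in the left.

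Lineage regulators differed by the gate compared. Irf8, needed for type 1 dendritic cells, was lower than in type 1 DC at 94.5 to 594 CPM (median 312) against 803 to 1678 CPM, a difference of -2.02 ± 0.24, as was Batf3 (-1.23 ± 0.26, lost with at least 3 gate genes required at adjusted p = 0.0686). Irf4, tied to the type 2 lineage, was higher than in type 1 DC (2.82 ± 0.47) and differed from type 2 DC by -0.01 ± 0.26 (adjusted p = 0.990). Id2 was higher than in type 2 DC (2.06 ± 0.18), and Nr4a3, an orphan nuclear receptor, was higher than in both (2.30 ± 0.23 and 2.23 ± 0.18). By size of difference outside the lists, Mreg (melanoregulin) ran from 50.5 to 203 CPM (median 85.8) in mature DC with no overlap (4.46 ± 0.31 and 4.99 ± 0.35), and Cd207 was higher than in type 2 DC (4.33 ± 0.53), ranging from 25.4 to 276 CPM (median 40.05). Lower genes were led by Siglech against type 2 DC (-3.94 ± 0.41), together with Tifab, Clec4b1, Ifitm6 and Cd7, and by Snx22 (-4.81 ± 0.46), F630028O10Rik, Tlr3, Sept3, Mycl and A530099J19Rik against type 1 DC. Tlr3, the sensor of double-stranded RNA, stood at 0 to 25.4 CPM (median 9.70) against 129.8 to 315 CPM (-3.78 ± 0.33). F630028O10Rik is annotated as antisense and A530099J19Rik as a long noncoding RNA. Of 11 interferon-stimulated genes tested against type 2 DC none passed, and of 12 against type 1 DC 4 were higher (Cxcl10, Ifit1, Oasl2 and Rsad2) and 1 lower. None of the 4 passed with at least 3 of the 5 gate genes required (adjusted p = 0.397, 0.136, 0.0599 and 0.145), and the lower call was lost without the library block (adjusted p = 0.105). Tissue wt replicate 2 stood apart, with Rsad2 at 413 CPM against 19.4 to 129 CPM in the other 7 libraries, Ifit1 at 147 against 0 to 42.4 CPM and Oasl2 at 117 against 0 to 51.6 CPM. Rsad2 was lost with adjusted p = 0.0703 to 0.110 without wt replicate 2 or wt replicate 3, and Ifit1 with adjusted p = 0.0577 without het replicate 1. Of 7 proliferation genes tested in each, none passed against type 2 DC and 3 were lower than in type 1 DC (Tubb5, Stmn1 and Birc5). None of these 3 passed under every alternative: Tubb5 was lost with thinned cells (adjusted p = 0.0535), Stmn1 with adjusted p = 0.0573 to 0.0880 without het replicate 2, null replicate 2, null replicate 3, wt replicate 1, wt replicate 2, wt replicate 3 or wt replicate 4 and Birc5 with adjusted p = 0.0652 to 0.116 without het replicate 2, null replicate 2, null replicate 3, wt replicate 1, wt replicate 2 or wt replicate 3.

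Markers of other cells moved with some of these differences, and their part in the results was not tested. Of the fibroblast list (Col1a1, Col1a2, Col3a1, Dcn, Lum and Pdgfra), 4 genes were tested, 2 were higher in mature than in type 2 DC and 3 than in type 1 DC. Its summed level ran from 0 to 1132 (median 72.3) CPM in mature DC, 3.95 to 131 (median 12.9) CPM in type 2 DC and 0 to 203 (median 17.8) CPM in type 1 DC. DESeq2 called none of Col1a1, Col1a2 and Col3a1 in the comparisons where edgeR did (adjusted p = 0.282 to 0.798). Of the B cell list 4 genes were tested and Ebf1 alone was higher in each comparison, with the list at 50.9 to 11578 (median 379) CPM in mature DC and 128 to 5846 (median 315) CPM in type 2 DC. Without members with a Cd79b or Ms4a1 UMI, Ebf1 was lost in both comparisons (1.25 and 1.05, adjusted p = 0.190 and 0.171). Of the epithelial list 6 were tested, none passed against type 2 DC and 4 were higher than in type 1 DC, with the list at 157 to 2402 (median 415) CPM in mature DC and 78.9 to 759 (median 189) CPM in type 1 DC. Without the 4 cells over 30000 UMIs the epithelial list ran from 157 to 2402 (median 332) CPM in mature DC, and Krt8 and Epcam were lost (adjusted p = 0.506 and 0.0952). DESeq2 did not call Krt8, Krt18 or Epcam (adjusted p = 0.434, 0.667 and 0.0549). Mzb1 of the plasma cell list and Kdr of the endothelial list were also higher than in type 1 DC. Klrd1 of the NK cell list was lower than in type 2 DC and higher than in type 1 DC. Macrophage markers were lower than in type 2 DC for 3 of 5 tested (Csf1r, Cd68 and C1qb) and than in type 1 DC for Marco. Plasmacytoid dendritic cell markers were lower than in type 2 DC for 5 of 6, among them Siglech. Against type 1 DC the plasmacytoid genes Tcf4 and Ly6d were higher and Siglech lower. T cell markers stood at 19.4 to 168 (median 67.8) CPM and NK cell markers at 43.6 to 281 (median 101) CPM in mature DC, and the 1 T cell gene tested (Cd2) passed in neither. Monocyte markers were lower than in type 2 DC for Ly6c2 and Plac8 of 4 tested and than in type 1 DC for Plac8. Neutrophil markers, 3 tested, passed in neither and ran from 16.98 to 2426 (median 297) CPM. Of the calls of these lists against type 1 DC, the epithelial gene Cdh1 alone passed under every alternative in which it was tested. Against type 2 DC, Ebf1, Cd68, Bst2, Tcf4, Col1a1 and Col1a2 did not. Several calls rested on single libraries. Against type 2 DC, Ebf1 was lost with adjusted p = 0.0594 to 0.106 without het replicate 1, het replicate 2 or wt replicate 4. Against type 1 DC, Ebf1 was lost with adjusted p = 0.0541 to 0.102 without het replicate 1, het replicate 2, null replicate 3, wt replicate 1, wt replicate 3 or wt replicate 4. Krt8 was lost with adjusted p = 0.0551 to 0.239 without wt replicate 1, wt replicate 2 or wt replicate 3 and Epcam with adjusted p = 0.0849 without wt replicate 1. Kdr against type 1 DC had adjusted p = 0.0601 to 0.0891 without het replicate 1, het replicate 2, null replicate 2, null replicate 3, wt replicate 1 or wt replicate 3. Klrd1 against type 1 DC had adjusted p = 0.0541 to 0.123 without het replicate 1, het replicate 2, null replicate 2, null replicate 3, wt replicate 2 or wt replicate 3. Marco had adjusted p = 0.0716 to 0.291 without het replicate 1, null replicate 2, null replicate 3, wt replicate 1, wt replicate 2 or wt replicate 3, Ly6d adjusted p = 0.0676 to 0.106 without wt replicate 1 or wt replicate 2 and Siglech adjusted p = 0.0529 to 0.0603 without wt replicate 1 or wt replicate 3. DESeq2 did not call Mzb1, Ly6d or Marco against type 1 DC (adjusted p = 0.0863, 0.0514 and 0.177). With at least 3 of the 5 gate genes required, Ebf1 and Ly6d turned to -0.19 and -0.078 against type 1 DC. Of mast and basophil markers Mcpt8, Cpa3 and Fcer1a had no UMI in mature DC of these libraries.

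The share of mature DC among passing barcodes addressed whether the cells were more or less frequent with Nalcn alleles altered. It was 0.454, 1.09, 0.625, 0.505 and 0.348% in wt replicates 1 to 5, 0.467 and 0.568% in the het libraries, and 0.608 and 0.427% in the null libraries. All 4 het and null values lay within the wt range, and wt replicate 2 stood highest. Means were 0.604 ± 0.287% in wt (SD, n = 5), 0.517 ± 0.0717% in het (n = 2) and 0.518 ± 0.128% in null (n = 2). Neither difference exceeded the spread between libraries (null minus wt -0.0858 percentage points, exact two-sided permutation p = 0.714; het minus wt -0.0862, exact p = 0.762; 21 splits each, smallest possible p 0.0476). Without wt replicate 2 both differences turned to 0.0346 and 0.0343 points (exact p = 0.8 and 0.733).

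**Figure D5:**
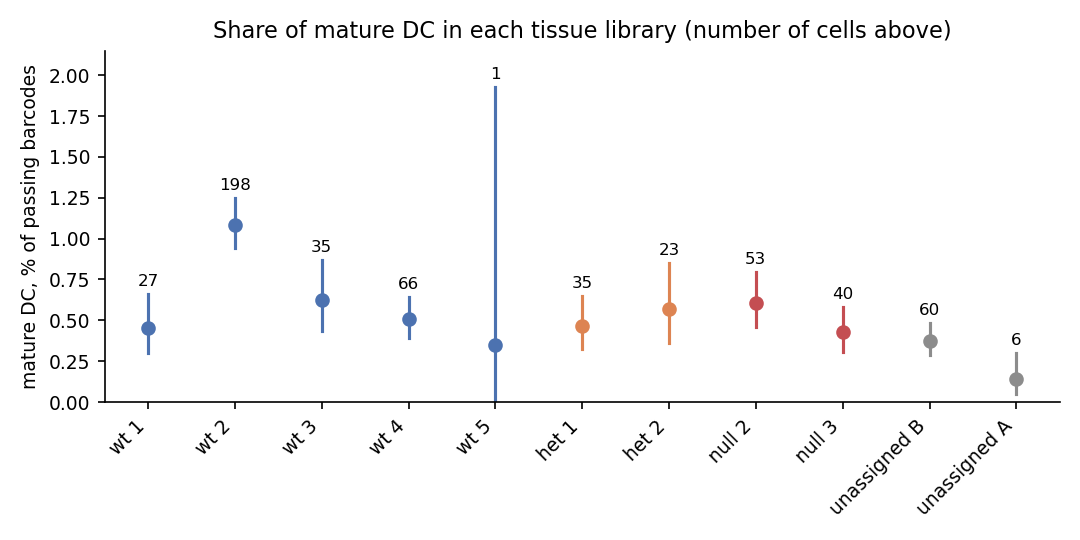
Mature DC as a percent of passing barcodes (y axis) in each of 11 tissue libraries, coloured by group, with exact 95% binomial intervals as lines and the number of cells above. Tissue wt replicate 2 is highest at 1.09%, and the het and null libraries lie within the range of the wt libraries.

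Expression within mature DC was compared between genotypes in the 8 libraries with at least 10 cells (477 cells; wt replicate 5 was left out), with sex as labelled as a covariate. No gene of 3374 passed adjusted p 0.05 in edgeR for null against wt (0%) or het against wt (0%). At an unadjusted p under 0.05 there were 223 and 268 genes, and DESeq2 called 3 and 11. The 3 were Gpx5, Defb20 and Spag11b, genes of the epididymis named after their values were seen. Gpx5 stood at 178 and 198 CPM in the null libraries, 25.5 and 67.9 CPM in the het libraries and 9.70, 11.03, 17.2 and 0 CPM in wt replicates 1 to 4. In simulated counts at this size, changes were placed only in genes above the median level. Of these, 48% of genes changed 4-fold and 3% of genes changed 2-fold were recovered for null against wt, so 2-fold changes were mostly not detectable. Recovery in genes below the median level was not simulated. Of the 16 signature genes none passed. Their median log2 difference was 0.87 for null and 0.30 for het, beside -0.03 and -0.01 over all genes tested, and 6 and 5 of the 16 had an unadjusted p under 0.05. Restricted to cells with at least 4 signature genes, the medians over the 15 genes that could be fitted were 0.71 and 0.05. The same genes chose these cells, so the restricted medians are a description and no independent check. The null median was 1.36 without null replicate 2 and 0.57 without null replicate 3, and the het median 0.11 without wt replicate 2, 0.16 without het replicate 2 and 0.08 without the cells over 30000 UMIs. Summed markers of other cells were uneven over the same libraries. Neutrophil markers summed to 16.98 and 19.4 CPM in the het libraries, 191 and 403 CPM in the null libraries and 569.7, 1427, 2426 and 21.04 CPM in wt replicates 1 to 4, and all 3 genes tested for het had an unadjusted p under 0.05. Endothelial markers summed to 611 and 349 CPM in the het libraries, 242 and 304 CPM in the null libraries and 112, 272, 215 and 324 CPM in wt replicates 1 to 4, and 4 of 6 genes tested for het had an unadjusted p under 0.05. Fibroblast markers summed to 29.7 and 0 CPM in the het libraries, 38.1 and 106 CPM in the null libraries and 12.1, 434, 379 and 1132 CPM in wt replicates 1 to 4, and none of 4 genes had an unadjusted p under 0.05 in either comparison. None of these genes passed after adjustment, and their part in the signature medians was not tested. B cell markers in mature DC were at 11578 CPM in wt replicate 4 and at 50.9 to 480 CPM in the other 7 libraries. Il12b stood at 230.3, 101, 490.3 and 152 CPM in wt replicates 1 to 4, 1163 and 649.6 CPM in the het libraries and 966 and 616 CPM in the null libraries. Neither difference passed in the main test (log2 1.71 ± 0.57 SE, adjusted p = 0.607 for het, and 2.03 ± 0.57, adjusted p = 0.724 for null). With a filter of at least 1 count both passed (1.78, adjusted p = 4.75e-04 for het, and 1.95, adjusted p = 3.75e-04 for null). Cd274 stood at 80, 179.8, 120.4 and 71.5 CPM in wt, 110.4 and 252 CPM in het and 191 and 152 CPM in null, with overlapping groups (0.36 ± 0.46, adjusted p = 0.896, and 0.87 ± 0.49, adjusted p = 0.756). Nalcn (chr14:123276634-123627144, minus strand) had no UMI in any of the 544 cells, wt included, which allows up to 0.987 CPM, so deletion could not be checked in these cells. Prom1 had 16 UMIs in 11 cells (2.02%).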

How the data were processed

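Single-cell 3′ libraries were analysed from the count matrices the authors deposited, whole UMI counts per gene and barcode for 31053 genes, unnormalised. The submitters' processing notes name Cell Ranger 2.1.1 and Seurat, and the matrix headers Cell Ranger 3.0.2, on mm10. Cells were gated on counts with no clustering, and doublets were scored with Scrublet (scanpy 1.11.5), used only as an alternative. Library totals ran from 8571019 to 139793927 UMIs in the tissue libraries. UMIs were summed per gate and library (at least 10 cells) and tested with edgeR 4.0.16 (quasi-likelihood, TMM, filterByExpr, Benjamini-Hochberg adjusted p under 0.05) in R 4.3.3, with DESeq2 1.42.0 as an alternative. Gene tests were checked on simulated counts. Shares were compared by exact permutation over libraries (scipy 1.17.1). Counting intervals are exact binomial at 95%, and a count of 0 was given an upper limit of 3 counts. Genes named outside the lists were up to 6 per direction and comparison with the largest change among those passing, at least 50 CPM in the higher gate and the same direction in every library. Members and lists were chosen with earlier results of these data known. Cells over 30000 UMIs, B cell transcripts and few signature genes were examined after seeing the data. Hashtag assignments were not used here, and some genes are not reported here.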

Additional observations from a re-analysis of the deposited data

Results flagged for a closer look

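Summed B cell markers in mature DC of tissue wt replicate 4 reached 11577.6 CPM, far above the next wt library at 370 CPM and the lowest at 50.9 CPM. It was the only one of 36 groups of values with a library this far apart, where chance gives about 1 in 20.

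The 2 tissue libraries without an agreed genotype also held mature DC. They made up 0.376% of passing barcodes in unassigned B (60 cells, exact interval 0.287 to 0.483%) and 0.139% in unassigned A (6 cells, 0.0510 to 0.302%).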

How the results depend on the processing

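The share of mature DC passed the test under no alternative, although those without 1 library could not pass (smallest possible p 0.0667 without a wt library and 0.167 without a het or null library). Null minus wt turned to 0.00484 percentage points without null replicate 3 (exact p = 1) and 0.0346 without wt replicate 2 (exact p = 0.8), and the values without single libraries ran from -0.176 to 0.0346. Het minus wt turned to 0.0343 without wt replicate 2 (exact p = 0.733), ran from -0.150 to 0.0343 without single libraries, and was 0.0858 among barcodes with a Ptprc UMI (exact p = 0.905).

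For genes between genotypes, where edgeR called 0, DESeq2 called 3 for null and 11 for het, a filter of at least 1 count gave 48 and 175, and a fit without sex 2 for null (Defb20 and Gpx5) and 0 for het. Leaving out single libraries gave 0 to 1: Sftpc for null without null replicate 3 or wt replicate 4, and Cd207 for het without wt replicate 1. Without null replicate 3 the null group was 1 library, assumed to vary like the others, with Sftpc at 2059 CPM against 22.8 CPM in the library left out. Same-numbered libraries deviated together by correlations of -0.028 to 0.12. With 2 het and 2 null libraries, these correlations cannot decide whether the numbers pair the libraries. The replicate block, fitted without sex, called 19 and 93. Within shared replicate numbers, blocked differences in share were -0.337 (null) and -0.252 points (het), with no test. Cd274 in het against wt ran from -0.21 (without het replicate 2) to 0.89 without single libraries. The cause of these moves was not tested.

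The counts of genes against type 2 and type 1 DC fell from 817 of 4227 and 1275 of 4972 tested to 485 of 2546 and 790 of 3075 without the library block, and to 311 of 965 and 406 of 993 with cells thinned to 1000 UMIs. Fewer genes were tested in both alternatives. Leaving out single libraries gave 672 to 787 and 1000 to 1236. Under a gate of at least 3 of the 5 genes, Ebf1 and Ly6d against type 1 DC turned to -0.19 and -0.078. All signature genes that could be fitted stayed higher under every alternative run. Of the other values of named genes, 37 of those against type 2 DC and 144 of those against type 1 DC no longer passed. Il12b passed between genotypes with the filter of at least 1 count only. Depth limited genes with few UMIs per library.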
